A study of Mus musculus with 4 samples.

Results

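The cells described here were 83 barcodes of mouse bone and marrow that were selected on 3 raw counts. Each held at least 2 unique molecular identifiers (UMIs, counts of single captured mRNA molecules) of Lepr, at least 2 of Grem1 and fewer than 2 of Cxcl14. They made up 60 of 10063 kept cells of the young mouse and 23 of 5607 kept cells of the old mouse, or 83 of 15670 cells in all. The comparison cells held at least 2 UMIs each of Lepr and Adipoq and no UMI of Grem1, and numbered 487 (young) and 358 (old). Single-cell mRNA and CD24 surface protein had been read together by CITE-seq in 1 mouse aged 6 months and 1 mouse aged 24 months. Both were INK-ATTAC mice, which carry a caspase 8 transgene under a fragment of the p16 promoter, and neither had been treated. Femurs and tibias were digested, blood lineage cells were depleted with beads and live CD45- cells were sorted, so shares describe the sorted suspension and not the tissue. With 1 mouse per age, age, animal and library cannot be told apart.

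Lepr encodes the leptin receptor and marks the reticular stromal cells of the marrow, which secrete the chemokine Cxcl12 and stem cell factor (Kitl) and so hold blood stem cells in place. Many of these cells also express adiponectin (Adipoq), and they can give rise to osteoblasts and adipocytes. Grem1 encodes gremlin 1, a secreted protein that binds bone morphogenetic proteins (BMPs) and keeps them from their receptors, and it is known as a marker of skeletal stem cells near the growth plate. Cxcl14 is a chemokine made by stromal cells.

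There were 11371 young barcodes with 82675434 RNA UMIs in all and 6729 old ones with 68580402. Kept cells had a median of 6385 UMIs (young) and 9711 (old), and predicted doublets made up 2.67% and 1.02% of them. The libraries shared 25 barcode sequences, of which 19 were kept in both, and none belonged to a selected cell.

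The promoters of 3 chemokine genes are printed because low Cxcl14 chose the cells and because Cxcl9 and Cxcl10 were among the few genes that were lower in them. Each line gives the 250 bases before the transcription start on the gene's strand, from RefSeq on GRCm38.p6, and capitals mark motif matches. All 3 genes lie on the minus strand, Cxcl14 at chr13:56296552-56296801, Cxcl10 at chr5:92348890-92349139 and Cxcl9 at chr5:92328080-92328329.
Cxcl14: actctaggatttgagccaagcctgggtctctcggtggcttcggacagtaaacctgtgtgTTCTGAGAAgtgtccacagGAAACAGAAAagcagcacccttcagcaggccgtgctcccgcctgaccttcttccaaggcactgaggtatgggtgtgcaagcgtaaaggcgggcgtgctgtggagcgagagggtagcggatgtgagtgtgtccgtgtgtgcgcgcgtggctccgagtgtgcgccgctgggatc
Cxcl10: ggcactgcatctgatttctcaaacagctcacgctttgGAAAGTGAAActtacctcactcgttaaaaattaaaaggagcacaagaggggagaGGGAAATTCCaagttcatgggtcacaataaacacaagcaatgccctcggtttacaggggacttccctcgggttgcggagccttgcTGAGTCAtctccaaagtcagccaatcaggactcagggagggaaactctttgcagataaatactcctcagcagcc
Cxcl9: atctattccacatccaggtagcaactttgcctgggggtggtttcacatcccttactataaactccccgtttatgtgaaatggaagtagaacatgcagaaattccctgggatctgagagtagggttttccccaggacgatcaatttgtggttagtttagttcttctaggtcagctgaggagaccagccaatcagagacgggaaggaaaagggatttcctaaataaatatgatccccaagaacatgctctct
The patterns searched on both strands were GAAA followed by GAAA after 2 free bases (the interferon-stimulated response element type), TTCNNNGAA (the gamma-activated site type), GGGA followed by TTCC after 2 free bases (the kappa-B type) and TGACTCA (the AP-1 heptamer). Of 32851 mouse promoters of this length, 2.98%, 7.02%, 1.21% and 4.46% held them, in that order. Cxcl14 held GAAACAGAAA at bases 172 to 163 before the start and TTCTGAGAA at bases 191 to 183. Cxcl10 held GAAAGTGAAA at bases 213 to 204, GGGAAATTCC at bases 159 to 150 and TGAGTCA, the heptamer's reverse complement, at bases 74 to 68. None of the 4 patterns was found in the Cxcl9 window. A match describes the letters only.

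Most cells with Lepr and Grem1 were removed by the limit on Cxcl14. Lepr was found at 2 or more UMIs in 3626 young and 2143 old cells, and 44.5% and 47.4% of these also had 2 or more UMIs of Grem1. Of these 1612 young and 1015 old cells, only 3.72% (95% exact interval 2.85 to 4.77) and 2.27% (1.44 to 3.38) had fewer than 2 UMIs of Cxcl14. The selected cells thereby made up 0.596% of the young kept cells (0.455 to 0.767) and 0.410% of the old ones (0.260 to 0.615), with intervals that overlap. Intervals of shares and sums are exact and cover counting error only.

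The share that passed the Cxcl14 limit fell with the depth of the cell. Among young cells with Lepr and Grem1 it was 61.1% below 2000 UMIs (11 of 18 cells), 9.38% from 2000 to under 4000, 2.86% from 4000 to under 8000 and 0.883% at 8000 or more. In the old mouse it was 66.7% (4 of 6 cells), 42.9%, 0.766% and 0.694% over the same classes. Low depth and a low Cxcl14 count therefore came together in the selected cells, whose median depth was 3749 young and 3047 old UMIs, against 4877 and 7830.5 in comparison cells. After every cell was thinned to 2000 UMIs, which left out 770 young and 496 old cells, 0.968% of young and 0.646% of old cells met the same 3 limits. At 5000 UMIs, where 3661 young and 1208 old cells were left out, the shares were 0.375% and 0.114%.

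**Figure D1:**
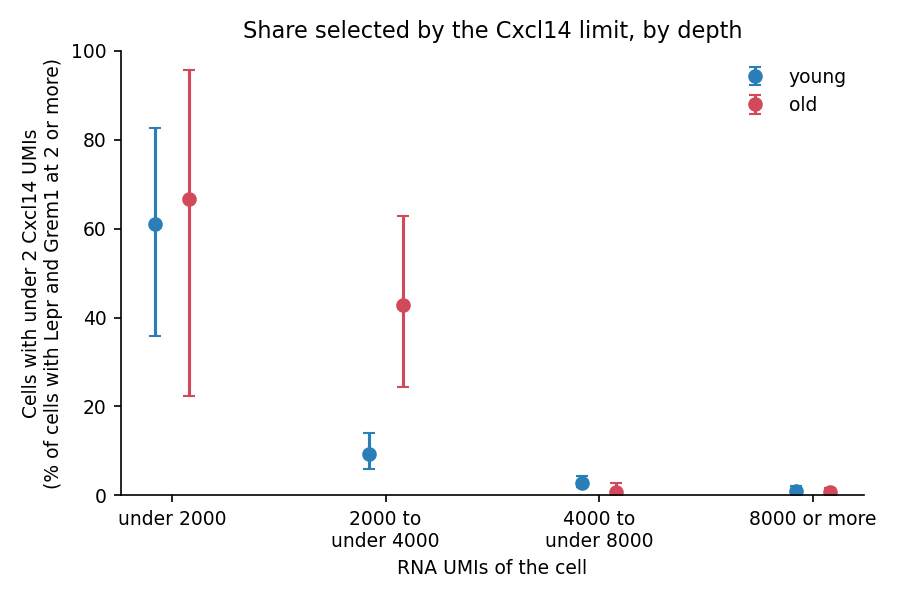
Percent of cells with at least 2 UMIs each of Lepr and Grem1 that had fewer than 2 UMIs of Cxcl14, by the RNA UMIs of the cell. Points are shares, bars 95% exact binomial intervals and colors the mice; the share is 61.1% and 66.7% in the shallowest cells and under 1% in the deepest.

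Many of the selected cells lay next to a threshold. Grem1 was at exactly 2 UMIs in 25 of 60 young and 12 of 23 old cells, with medians of 3 and 2 and maxima of 15 and 49. Lepr was at exactly 2 UMIs in 15 young and 2 old cells, with a median of 6 in each mouse. Cxcl14 was at 1 UMI in 31 young and 11 old cells and at 0 in the other 29 and 12. Just outside, 62 young and 26 old cells had 1 UMI of Grem1 in place of 2 and met the other limits, and 26 and 6 had 1 UMI of Lepr. Another 119 young and 20 old cells had 2 or more UMIs of Grem1 and none of Lepr, whatever their Cxcl14.

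The selected cells carried signs of lower RNA quality. Their median share of mitochondrial UMIs was 3.68% (young) and 9.18% (old), against 2.73% and 2.86% in comparison cells. Over 10% mitochondrial UMIs were found in 9 young and 10 old selected cells (15.0% and 43.5%) and in 2.26% and 3.63% of comparison cells. Cells with 1 UMI of Grem1 that met the other limits were alike, with medians of 3.68% and 9.58%. Of these, 17.7% and 46.2% were over 10%. The nuclear RNA Malat1 stood at 67934 CPM (UMIs of the gene scaled to 1000000 RNA UMIs of the group) in young and 78878 CPM in old selected cells, against 49799 and 48237 CPM. These 3 measures moved with the selection in both mice, most in the old one, and their part in the gene differences below was not tested.

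Of the genes that were to mark these cells, Rgs16 and Hes1 were not higher than in comparison cells in both mice. Ccn1 was somewhat higher in both. As a description with no test, Rgs16, a brake on G protein signaling, stood at 19.0 against 20.4 CPM (young) and 67.4 against 23.5 CPM (old), on 5 and 9 UMIs. Hes1, a transcription factor induced by Notch, stood at 616 against 608 CPM (young) and 277 against 487 CPM (old). Ccn1, a matricellular protein, was at 833 against 688 and 854 against 581 CPM. The cells are therefore called here by their rule.

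Among the genes the rule did use, Grem1 reached 920 CPM in the young and 1146 CPM in the old selected cells. Lepr was at 1612 against 1604 CPM and 1146 against 1533 CPM. Cxcl14 was at 118 against 3495 CPM and 82.4 against 5186 CPM. Adipoq was not required of the selected cells, and 34 of 60 young (56.7%) and 6 of 23 old cells (26.1%) held 2 or more UMIs. Its level was 745 against 1568 CPM (young) and 202 against 2133 CPM (old). The contrast with the comparison cells thus joined 3 differences, in Grem1, in Cxcl14 and in Adipoq. Only 30 young and 9 old comparison cells had fewer than 2 UMIs of Cxcl14.

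Not every selected cell had the profile of marrow stroma. Markers of another cell type reached 10 or more UMIs in 13 young and 5 old selected cells, 21.7% of each, against 9.24% and 7.82% of comparison cells. Among all cells with 2 or more UMIs of Lepr the share was 27.4% (young) and 23.3% (old), so such cells were not particular to the selection. Ibsp was left out of the osteoblast markers for this count because 95.5% of young and 89.7% of old comparison cells held it. By type, 3 young and 1 old cell exceeded the count for osteoblasts, 4 and 2 for fibroblasts, 2 and 1 for tendon cells, 5 and 2 for blood cells and 0 and 1 for chondrocytes, and a cell can count for several. No cell exceeded it for endothelium, smooth muscle or Schwann cells. In the young cells the endothelial markers Pecam1, Cdh5 and Kdr were at 0, and in the old cells all 4 endothelial markers were at 0. These 18 cells were deeper than the rest and held 35.2% of the young and 49.9% of the old RNA UMIs of the group.

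Single cells show how far a few of them weigh. In the old mouse 1 cell of 20187 UMIs held 440 UMIs of Col1a1 (type I collagen), 111 of Postn and 37 of Tnn, with 1 UMI of Cxcl12. Another old cell of 20146 UMIs held 473 UMIs of Prg4, the lubricin of joint surfaces. In the young mouse a pair of cells held 361 and 471 UMIs of the neutrophil gene S100a8, and another pair held 88 and 92 UMIs of the osteoblast product Bglap. The doublet call marked 2 of the young and none of the old selected cells, so most of these cells were not called doublets.

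The remaining 47 young and 18 old cells all held Cxcl12. Its count ranged from 7 to 198 UMIs with a median of 90 in the young cells, and from 13 to 124 with a median of 27 in the old cells. Comparison cells had medians of 131 and 186. The 13 young and 5 old cells with markers of another type held Cxcl12 as well, with medians of 26 and 62 and a lowest count of 1 in each mouse, so that its detection did not tell the 2 kinds of selected cell apart. Fewer than 10 UMIs of Cxcl12 were found in 5 young and 1 old of all selected cells, and 4 and 1 of these held markers of another type.

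**Figure D2:**
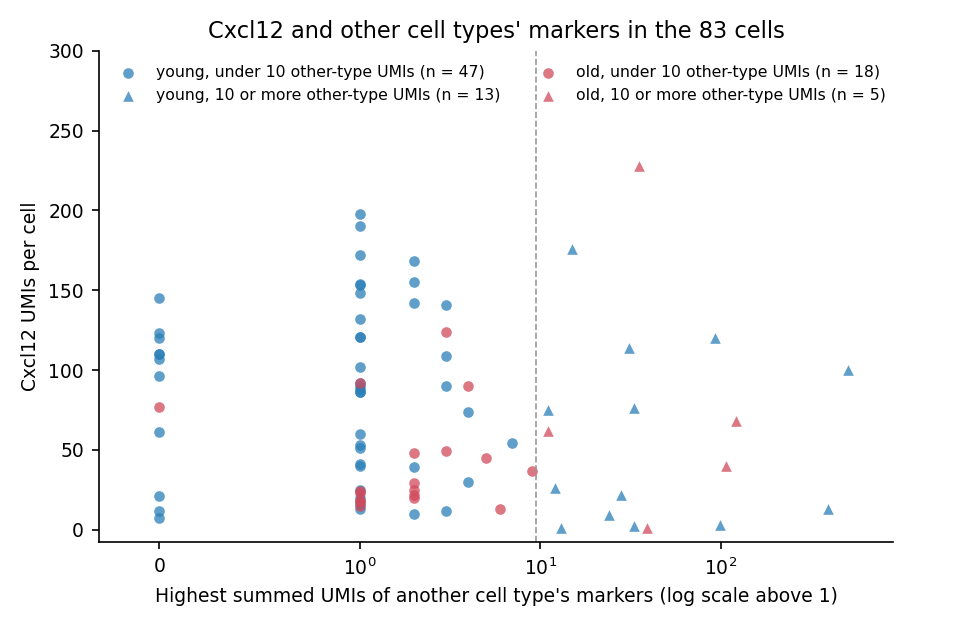
Each point is 1 of the 83 selected cells, with its Cxcl12 UMIs on the vertical axis and the highest summed UMIs of any other cell type's markers on the horizontal axis (log scale above 1). Triangles right of the dashed line are the 13 young and 5 old cells with 10 or more such UMIs, and some of them lie near 0 UMIs of Cxcl12.

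The first question was which other genes differed between the selected and the comparison cells. UMIs were summed per mouse and group, giving 4 sums, and tested with edgeR's quasi-likelihood test with the mouse as a block. Of 10334 genes, 32 passed an adjusted p of 0.05, or 0.31%. There were 26 higher in the selected cells (0.252% of all tested) and 6 lower (0.0581%), each in the same direction in both mice. The median log2 difference over all genes was -0.04. Those that fell were A2m, Kit, Serpina12 and 3 chemokines.

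The genes that rose lay almost wholly in the cells with markers of another type. Over both mice, 74.0% to 100% of the UMIs of each of these 26 genes in selected cells lay in those 18 cells, with a median of 95.9%. The 2 lists share genes in part, since Bglap is itself a marker used in that count.

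The matrix protein genes Tnn, Aspn, Cthrc1, Prg4 and Postn were among the 10 named for the size of their change. Tnn (tenascin N) had 16 UMIs in young and 37 in old selected cells against 21 and 1 in comparison cells, and all of the 16 and 37 lay in cells with markers of another type (log2 difference 5.13 ± 0.86 SE, edgeR adjusted p = 0.0406). Postn (periostin) stood at 354 against 79.3 CPM (young) and 839 against 23.5 CPM (old) (3.57 ± 0.54, edgeR adjusted p = 0.0203). In the old mouse 1 cell held 99.1% of the Postn UMIs. Aspn (asporin) stood at 757 against 131 CPM and 2044 against 53.5 CPM (3.86 ± 0.53, edgeR adjusted p = 0.012), and Prg4 at 924 against 235 CPM and 4478 against 112 CPM (3.64 ± 0.65, edgeR adjusted p = 0.0482). In cells with markers of another type lay 99.5% and 100% of the Aspn UMIs and 97.5% and 99.5% of the Prg4 UMIs. Ptn, a heparin-binding growth factor, had 24 and 99 UMIs against 31 and 71 (4.17 ± 0.41, edgeR adjusted p = 0.00132). Cthrc1 (3.65 ± 0.61) and Cpe (3.43 ± 0.42) rose as well, on 11 and 25 and on 21 and 19 UMIs in the selected cells.

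The osteocalcin genes and a neutrophil gene rose mainly through the young mouse. Bglap stood at 707 against 50.6 CPM (young) and 67.4 against 23.8 CPM (old) (3.07 ± 0.44, edgeR adjusted p = 0.015). Its near-identical neighbor Bglap2, whose reads can be split uncertainly between the copies, had 209 and 11 UMIs against 151 and 54 (3.27 ± 0.37, edgeR adjusted p = 0.00296). Ngp, a neutrophil granule protein, had 123 UMIs in young and 3 in old selected cells (3.28 ± 0.35, edgeR adjusted p = 0.0026), and 98.4% of the young UMIs came from 1 cell. The other genes that rose were Matn4, Igfbp2, Pdgfrl, H19, Chad, Fn1, Mmp2, Steap3, Igf2, Crispld2, Nbl1, Ptgis, Omd, Thbs4, Lum and S100a4.

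When cells with 10 or more UMIs of another type's markers were left out of both groups, none of these genes was called. Of the 26, 18 could still be tested, and 10 were then higher and 8 lower. Aspn, Prg4 and Ptn stood at log2 differences of -1.91, -1.66 and -1.27, on 1, 9 and 1 UMIs in the selected cells over both mice. Postn was left with 8 young UMIs and none in the old cells, at 0.99.

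Of the 6 genes that fell, all but Serpina12 were also called when the cells with those markers were left out. A2m (ENSMUSG00000030111), which encodes the protease inhibitor alpha-2-macroglobulin, had no UMI in any of the 60 young or 23 old selected cells. Comparison cells had 333 UMIs (126 CPM, 112.6 to 140.1) (young) and 382 UMIs (130 CPM, 117 to 144) (old). The selected cells' interval reached 14.0 CPM (young) and 27.6 CPM (old), so the groups do not overlap in either. With 3 UMIs allowed for a count of 0 over both mice, A2m was at least 16.9-fold lower (edgeR adjusted p = 0.00296). By cells, A2m was found in 25.3% of young (21.5 to 29.4) and 29.1% of old comparison cells (24.4 to 34.1), against 0 of 60 cells, which allows up to 5.96%, and 0 of 23, which allows up to 14.8%. With every cell thinned to 2000 UMIs, it was found in 0 of 49 young and 0 of 19 old selected cells and in 16.6% and 17.0% of comparison cells.

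A2m was not low in all cells with Grem1. In cells with 2 or more UMIs each of Lepr, Grem1 and Cxcl14 it stood at 83.7 CPM in 23.3% of young and 74.0 CPM in 21.4% of old cells. In young comparison cells with fewer than 2 UMIs of Cxcl14 it had 13 UMIs in 7 of 30 cells (122 CPM, 64.9 to 209), and in the 9 old ones none. 

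Cxcl9, Cxcl10 and Cxcl5, which attract T cells (the first 2) or neutrophils, were also lower. Cxcl9 had 2 young and 3 old UMIs in selected cells (7.60 and 22.5 CPM) against 386 and 1311 UMIs (146 and 447 CPM), a log2 difference of -4.30 ± 0.40 (edgeR adjusted p = 0.000975). Cxcl10 had 2 and 3 UMIs against 87 and 775 (-3.11 ± 0.47, edgeR adjusted p = 0.0203), and Cxcl5 3 and 2 UMIs against 93 and 781 (-3.11 ± 0.53, edgeR adjusted p = 0.0438). All 3 were low in both mice, and their sums in comparison cells rested on a minority of cells. Cxcl9 was found in 2 of 60 young selected cells (3.33%, 0.406 to 11.5) against 9.65% (7.18 to 12.6), and in 2 of 23 old ones (8.70%) against 20.4% (16.3 to 24.9). Cxcl10 was found in 1 young (1.67%, 0.0422 to 8.94) and 1 old selected cell (4.35%, 0.110 to 21.9) against 3.49% and 7.26%, and 1 old comparison cell held 24.3% of that group's Cxcl10. Cxcl5 was found in 2 young (3.33%) and 1 old selected cell (4.35%, 0.110 to 21.9) against 4.11% and 32.7% (27.8 to 37.8). For Cxcl9 and Cxcl10 the intervals of the shares of cells with a UMI overlapped in both mice. In the young mouse the intervals of the summed level overlapped as well for Cxcl10 (0.921 to 27.5 against 26.3 to 40.5 CPM) and Cxcl5 (2.35 to 33.3 against 28.4 to 43.0 CPM).

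Serpina12 (the adipokine vaspin) and Kit (the receptor of stem cell factor) completed the list. Serpina12 had 13 and 6 UMIs in selected cells against 499 and 778 (49.4 and 44.9 against 188 and 265 CPM), a log2 difference of -2.19 ± 0.32 (edgeR adjusted p = 0.0151). Kit, named because the list holds 6 genes and chosen after its values were seen, had 1 and 0 UMIs against 153 and 319 (edgeR adjusted p = 0.0194). Its level in selected cells was 3.80 CPM (0.0963 to 21.2) in the young mouse and 0, or up to 27.6 CPM, in the old one, against 57.8 and 109 CPM. Young comparison cells with fewer than 2 UMIs of Cxcl14 held Serpina12 at 46.9 CPM (15.2 to 109), near the 49.4 CPM of the young selected cells, and no UMI of Kit. Those with more Cxcl14 held 194 CPM of Serpina12 and 60.2 CPM of Kit.

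**Figure D3:**
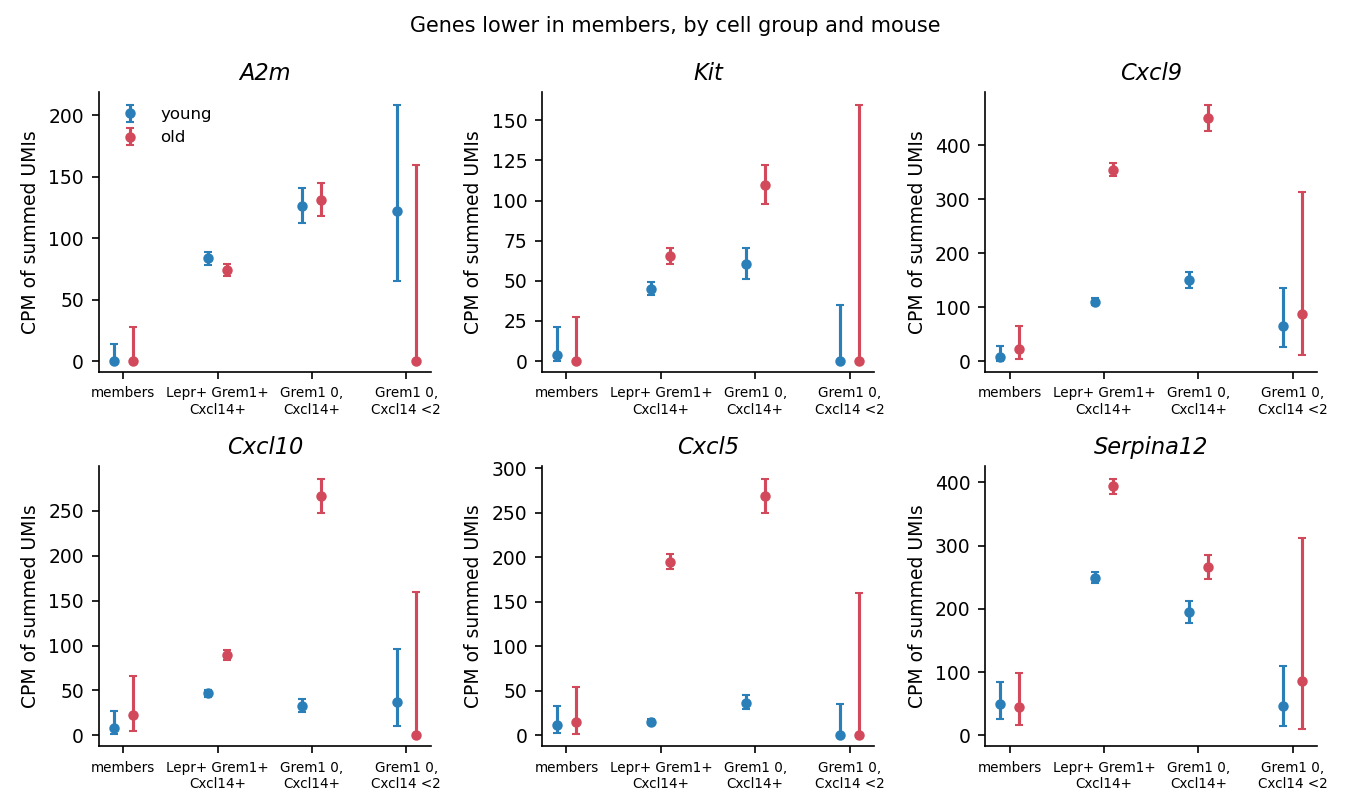
CPM of summed UMIs of the 6 lower genes in 4 groups of cells per mouse: selected cells (members), cells with Lepr, Grem1 and Cxcl14, and comparison cells (Grem1 0) with 2 or more and with fewer than 2 UMIs of Cxcl14. Points are values of 1 sum, bars 95% exact Poisson intervals; A2m is at 0 in selected cells of both mice and at 74.0 to 131 CPM in both groups with Cxcl14.

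Without the cells that carried markers of another type, 9 of 9597 genes were called (0.0938%), of which 5 were among the 32. A2m (edgeR adjusted p = 8.2e-08), Kit (7.6e-05), Cxcl9 (1.5e-08), Cxcl5 (0.00193) and Cxcl10 (0.0294) were again lower, whereas Serpina12 was not called (-1.56, edgeR adjusted p = 0.196). Comp and Sparcl1 were called lower as well. Comp, a cartilage matrix protein, had 7 and 4 UMIs in selected cells against 652 and 641 (-2.61, edgeR adjusted p = 0.000207). Sparcl1, a matricellular protein, had 1 and 0 UMIs against 64 and 541 (edgeR adjusted p = 0.0014).

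Hsph1, a heat shock chaperone, was called higher in these cells. It stood at 182 against 96.9 CPM (young) and 449 against 60.4 CPM (old) (1.77, edgeR adjusted p = 0.000936). It was held by few cells. In all selected cells Hsph1 was found in 15 young and 5 old cells, and 1 old cell held 81.8% of the old UMIs. When comparison cells were also matched in depth, 11 of 2253 genes were called (0.488%), and A2m and Comp were again lower. Heat shock genes were among the 9 called higher there, with Hspb1 (2.09), Dnajb1 (2.36), Hsp90aa1 (1.92) and Hsph1 (2.84), beside Ptx3 (a secreted pentraxin), Klf6, Iigp1 and Kcnq1ot1. In the old mouse these 4 heat shock genes rested on 35, 38, 177 and 30 UMIs in 18 selected cells. The 18 old comparison cells left held 1, 4, 37 and 2 UMIs. With all cells kept, Hsph1 did not pass the test (1.57 ± 0.29, edgeR adjusted p = 0.0543).

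**Figure D4:**
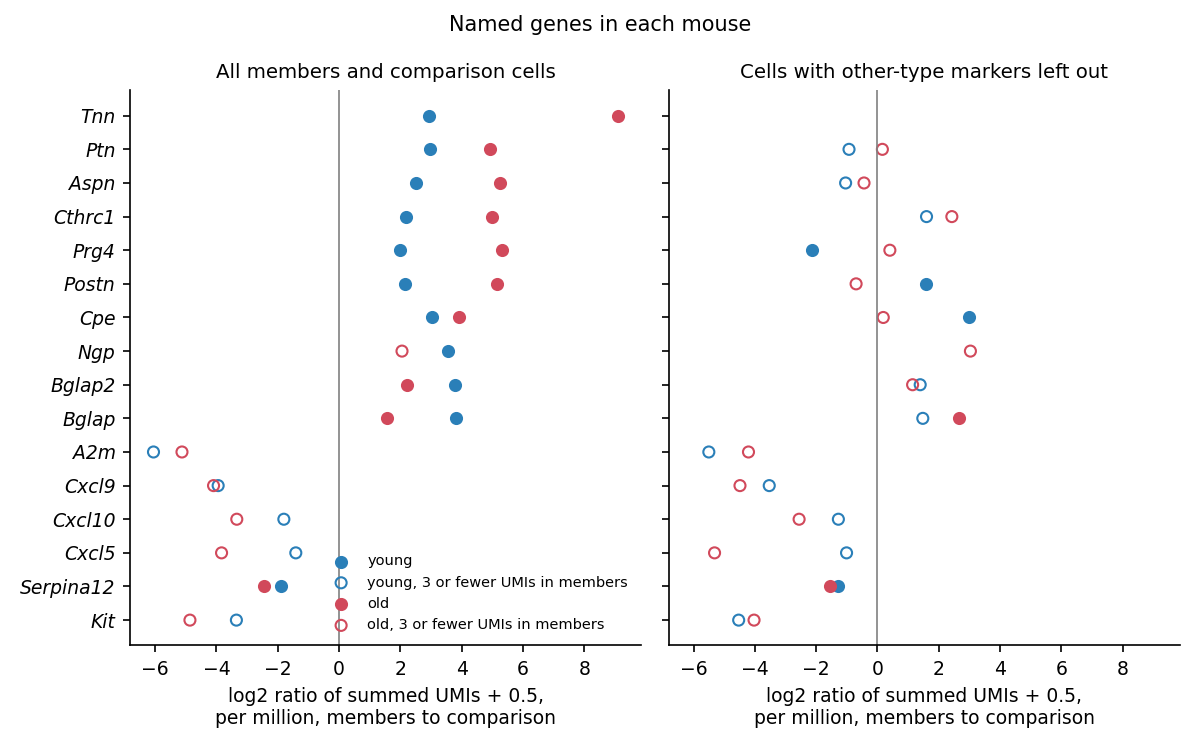
log2 ratio of selected (members) to comparison cells in each mouse for the 16 named genes, with all cells (left) and without cells that held 10 or more UMIs of another type's markers (right); 0.5 UMIs were added to each sum. Hollow points rest on 3 or fewer UMIs in selected cells and are no estimate of size; the 10 upper genes lie above 0 in both mice on the left and no longer do so as a group on the right, while the 6 lower genes stay below 0.

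With all cells kept, marrow niche genes were mostly lower without passing the test. Of 23 niche factors and stromal genes, 1 was called higher (Fn1) and none lower, where 0.31% of all genes tested were called. In both mice 14 of them were lower and 4 higher, where 2583 and 3484 of all 10334 genes tested were. Their median log2 difference was -0.44 against -0.04 over all genes. Without the cells with markers of another type it was -0.24 against -0.11, and none was called, where 0.0938% of all genes tested were. Cxcl12 stood at 18726 against 26373 CPM (young) and 8747 against 23420 CPM (old) (-0.97 ± 0.36, edgeR adjusted p = 0.48). Kitl stood at 1487 against 1661 CPM and 959 against 1823 CPM (-0.54 ± 0.28). Selected cells without markers of another type held Cxcl12 at 24564 CPM (young) and 11498 CPM (old). They held Kitl at 1830 and 1675 CPM. The young values thus lay nearer to those of all comparison cells, or above them for Kitl. Fibronectin, the product of Fn1, is made by many mesenchymal cells, and 97.7% of its UMIs in selected cells lay in those with markers of another type (2.49 ± 0.34, edgeR adjusted p = 0.0106).

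Genes of the BMP pathway, on which gremlin acts, gave 1 call, where 0.31% of all genes tested were called. None of 8 BMP ligands (median -0.31), 7 receptors (median 0.39) or 10 BMP targets and SMADs (median 0.09) was called. The ligand Bmp6 stood at 167 against 247 CPM and 120 against 200 CPM (-0.64 ± 0.25), and the receptor Bmpr2 at 202 against 137 CPM and 240 against 153 CPM (0.59 ± 0.24). The target Id1 had 29 and 6 UMIs against 177 and 68 (0.78 ± 0.32). Of 9 BMP antagonists other than Grem1, Nbl1 was higher at 304 against 67.6 CPM and 150 against 29.3 CPM (2.23 ± 0.25, edgeR adjusted p = 0.00296), with 94.0% of its UMIs in cells with markers of another type. Fst (follistatin) stood at 582 against 438 CPM and 584 against 469 CPM (0.35 ± 0.23). Without those cells none of these genes was called, where 0.0938% of all genes tested were. With so few genes in each list, this is near the overall share and gives no result about the pathway.

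The groups of genes to which the proposed markers belong gave no call, where 0.31% of all genes tested were called. The markers themselves were left out of these counts. There were 10 Notch pathway genes (median log2 difference 0.04), 11 YAP-TEAD targets (0.29) and 8 genes of the RGS family (0.07). Raw UMIs here come from totals of 263005 (young) and 133536 (old) in selected cells, against 2647264 and 2935362 in comparison cells. Notch1 had 10 and 14 UMIs against 65 and 99, which is higher per RNA UMI in both mice. The YAP-TEAD target Amotl2 had 66 and 28 against 368 and 446 (0.67 ± 0.25). Rgs5, known from pericytes, had 11 and 6 UMIs against 26 and 37 (1.96 ± 0.53, edgeR adjusted p = 0.265). Rgs4 had 13 UMIs in selected against 8 in comparison cells of the young mouse, and 1 against 23 in the old one. Per RNA UMI it was higher in the young selected cells and about level in the old ones.

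Stress genes, which digestion and sorting can induce, gave no call among 25 immediate-early genes (median 0.16) or 20 heat shock and oxidative stress genes (0.19) with all cells kept. Of all genes tested, 0.31% were called. Fos stood at 3220 against 2435 CPM and 2629 against 1641 CPM (0.53 ± 0.26) and Hsp90aa1 at 1152 against 705 CPM and 1528 against 447 CPM (1.23 ± 0.29, edgeR adjusted p = 0.16). Of 19 osteolineage genes, Postn, Bglap2 and Bglap were called higher, where 0.252% of all genes tested were, and the median was 0.62. Without cells with markers of another type none of 18 was called, where 0.0938% of all genes tested were, and the median was -0.14. Ibsp, an osteoblast sialoprotein that the Lepr cells also hold, stood at 4487 against 8186 CPM and 831 against 4345 CPM (-1.61 ± 0.38, edgeR adjusted p = 0.16). None of 15 adipocyte lineage genes (median -0.49) and none of 14 arrest, survival and secretory genes (-0.19) was called, against the same 0.31%. Pparg, the adipocyte transcription factor, had 3 and 1 UMIs against 94 and 181.

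Counts of other cell types' markers were summed for each list as well. In selected cells the 7 blood markers reached 3730 CPM (young) and 1273 CPM (old), against 1202 and 856 CPM. The 5 fibroblast markers reached 418 and 1086 CPM against 329 and 340 CPM, and the 4 tendon markers 224 and 300 CPM against 74.0 and 6.47 CPM. The 4 osteoblast markers, Ibsp included, reached 5304 and 1071 CPM against 8323 and 4429 CPM. Chondrocyte markers reached 53.2 and 142 CPM against 43.1 and 22.5 CPM, and Schwann cell markers 11.4 and 22.5 CPM against 3.78 and 4.09 CPM. Blood, fibroblast, tendon, chondrocyte and Schwann cell sums were thus above those of comparison cells in both mice, and the osteoblast sum was below. Single cells held much of some sums, with 391 and 502 blood UMIs in a pair of young cells. Single old cells held 107 fibroblast and 39 tendon UMIs.

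To see what the Grem1 rule alone picks, cells with 2 or more UMIs each of Lepr, Adipoq and Cxcl14 were divided by Grem1. After the Grem1-positive cells had been drawn to the depth of the Grem1-negative ones, 352 young and 220 old cells stood against 457 and 349, and 107 of 10990 genes were called (0.974%), 39 higher and 68 lower. These are not the cells selected above but the Cxcl14-positive majority of Lepr and Grem1 cells. In them Postn stood at 236 against 79.9 CPM and 40.3 against 23.3 CPM (1.30, edgeR adjusted p = 0.000541), and Rspo2, an enhancer of Wnt signals, at 78.2 against 37.0 CPM and 102 against 53.6 CPM (1.01, edgeR adjusted p = 0.000672). Bmp6 (0.48), Fst (0.43), Notch3 (0.48) and Rgs5 (1.31) were called higher, and Nbl1 (-0.87), Dpt (-1.77), S100a4 (-1.67) and Ccl2 (-1.03) lower. Nbl1 and S100a4, called higher in the selected cells, were thus called lower here, and Serpina12, called lower in the selected cells, was called higher (0.48, edgeR adjusted p = 0.0395). Cells with markers of another type were kept in both groups, and Dpt is itself a marker used in that count. Among all comparison cells, such cells held 85.1% (young) and 92.3% (old) of the S100a4 UMIs. They held 76.0% and 84.9% of the Nbl1 UMIs, and their part in these calls was not tested. Tnn was called higher (3.16, edgeR adjusted p = 0.000541) and Kit (-0.81, edgeR adjusted p = 0.0137) and Cxcl5 (-0.65, edgeR adjusted p = 0.0141) lower, in the direction of the selected cells. Both comparisons draw on the same Grem1-negative cells. A2m was not called (-0.55, edgeR adjusted p = 0.114).

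Against the same Cxcl14-positive majority, 1552 young and 992 old cells with Lepr, Grem1 and Cxcl14, the selected cells differed in 172 of 12369 genes (1.39%), 93 higher and 79 lower. Depth was not matched, with medians of 3749 (young) and 3047 (old) against 6740 and 9852.5 UMIs. Cells with markers of another type were kept, at 21.7% of each against 13.6% and 10.4%. Prg4 (3.05), Aspn (3.81) and Postn (3.02) were among the genes called higher. A2m and Cxcl9 were called lower there too (A2m with no UMI against 996 and 779, and Cxcl9 at -4.03).

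The selected cells were next ordered by Grem1. In the young mouse, 35 cells had 2 to 3 UMIs, 17 had 4 to 7 and 8 had 8 or more, and in the old mouse 15, 5 and 3. Cxcl12 stood at 19983, 15241 and 23301 CPM over these classes (young) and 9361, 6379 and 10605 CPM (old), with no order by Grem1. In the young mouse Hes1 stood at 513, 479 and 1386 CPM and Ccn1 at 915, 330 and 1877 CPM, and in the old mouse Hes1 at 135, 640 and 109 CPM and Ccn1 at 1017, 512 and 941 CPM. The high values at 8 or more UMIs in the young cells thus had no like in the old cells. They rested mostly on 1 young cell with 32 UMIs of Hes1 and 41 of Ccn1. Likewise 1 old cell with 4 UMIs of Grem1 held 21 UMIs of Hes1, most of those in its class. Over 8 points, these classes and cells with 1 UMI of Grem1 in each mouse, the highest rank correlations with Grem1 among all genes were those of Fat4 (Spearman's rho 0.952), Igfbp3, Zfp326 and B4gat1 (0.929 each) and Serpina3g (0.905). These are the extremes of many genes over few points, which share 2 libraries, were ordered by a gene of the rule and differ in depth, so they describe the classes and show no association.

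CD24 protein, the antibody readout, was not used by the rule. Its count had a median of 76 in young and 85 in old selected cells, against 81 and 77 in comparison cells, with ranges of 30 to 1430 and 34 to 373 in the selected cells. Per 10000 RNA UMIs the values were 207 and 295 against 164 and 104. Depth-matched comparison cells stood at 205 and 193. Above the library's threshold (312 (young) and 396 (old)) lay 3 of 60 young cells (5.00%, 1.04 to 13.9) and 0 of 23 old cells (up to 14.8%), against 3.49% and 3.35% of comparison cells. A difference in this share was therefore not detectable with these numbers of cells.

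Between the ages there was 1 mouse each, so the values are given without a test. Within the selected cells 98 of 3404 genes with a mean of 50 CPM or more (2.88%) had a counting interval of the ratio outside 2-fold, 51 higher and 47 lower in the old mouse, against 27 of 3411 (0.792%) in comparison cells. Without the cells with markers of another type, 42 were higher and 19 lower. The sums of the selected cells were smaller, and a few cells made up much of each. Most of the extreme ratios lay in 1 or 2 cells. Htra4, a secreted protease, had 1 young and 65 old UMIs (log2 ratio of old to young 7.00), in 2 old cells, and Ostn 1 and 20 UMIs (5.30), in 1 old cell. Gm42679 (5.56), Megf6 (4.88), H19 (4.21), Hmcn1 (4.15), Gpnmb (3.71) and Acan (3.68) came from 1 to 3 old cells each.

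The genes lowest in the old mouse were mainly those of neutrophils. S100a9 had 1117 young and 8 old UMIs (-6.15) and S100a8 835 and 10 (-5.41), and 5 young cells each held them. In comparison cells the same ratio was -2.23 for S100a9 and -2.03 for S100a8. Retnlg had 160 UMIs in 2 young cells and none in the old mouse, and Camp 116 UMIs in 1 young cell and none. Ngp (-4.38) and Lcn2 (-4.31) lay in 3 and 2 young cells. Retnlg, Ngp and Lcn2 were also lower in old comparison cells, at -4.18, -2.69 and -1.49, and Camp was at -0.23 there (-1.28 to 0.81). C6, a complement component, and Hpgd, which breaks down prostaglandins, differed from these in being spread over many cells. C6 had 47 UMIs in 26 young cells and 1 UMI in the old mouse (-4.58, -9.91 to -2.03), against -1.15 in comparison cells. Hpgd had 36 UMIs in 19 young cells and 1 UMI in the old mouse (-4.19, -9.53 to -1.62), against -0.31 in comparison cells.

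Several stromal genes had lower values in the old than in the young selected cells. Cxcl12 stood at 18726 CPM (young) and 8747 CPM (old), a log2 ratio of -1.10 (-1.19 to -1.01), and at -1.10 also without the cells with markers of another type, against -0.17 in comparison cells. Hp (haptoglobin) stood at 4973 and 801 CPM (-2.63, -2.93 to -2.35) against -0.72 in comparison cells, and Ibsp at 4487 and 831 CPM (-2.43, -2.73 to -2.15) against -0.91. Vcam1, an adhesion molecule, was at -0.94 against 0.12. Kitl was at -0.63 in all selected cells and at -0.13 (-0.45 to 0.19) without the cells with markers of another type, against 0.13. Igfbp5, an insulin-like growth factor binding protein, was higher in the old mouse at 0.49, and at 0.43 in comparison cells. The intervals of Csf1 and Runx2 held 0. Among these cells the mitochondrial share was 9.18% in the old and 3.68% in the young mouse, and its part in the ratios was not tested.

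**Figure D5:**
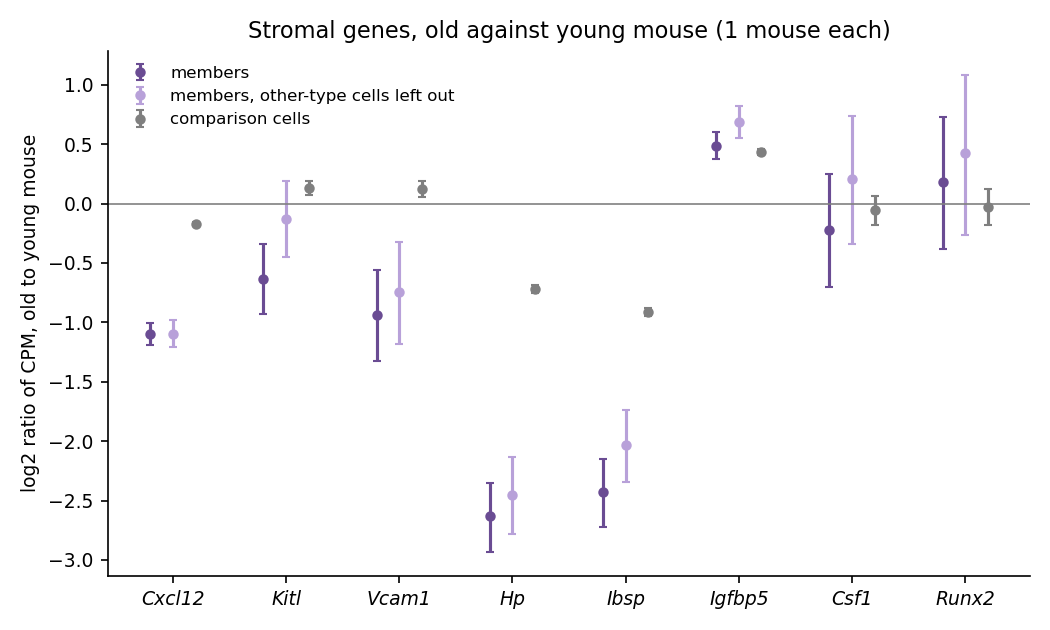
log2 ratio of CPM, old to young mouse (1 mouse each), for 8 stromal genes in selected cells (members), selected cells without those that held other-type markers, and comparison cells. Bars are 95% exact intervals for counting error only; Cxcl12, Hp and Ibsp lie lower in selected than in comparison cells.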

How the data were processed

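CITE-seq libraries of 2 mice, 1 per age, were analysed. The authors deposited raw UMI counts of 32285 genes and 1 antibody for every barcode, 1 matrix for each animal, with no normalization. Cell Ranger 6.1.1 wrote them per the file headers, and the submitters' processing notes name mm10, Seurat 4.0 and R 4.0.3. A 3' library does not separate isoforms, and free RNA in a droplet is counted with the cell.

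Barcodes with at least 200 genes and at most 20% mitochondrial UMIs were kept. The cell rule and the gene lists were chosen with earlier results of these data known. Doublets were predicted per library with Scrublet in scanpy 1.11.5 (Python 3.11.15, NumPy 2.4.6, SciPy 1.17.1) and kept, and leaving them out was an alternative. Depth of the groups was 263005 young and 133536 old UMIs in selected cells and 2647264 and 2935362 in comparison cells. Cells are not replicates, so UMIs were summed per mouse and group, and the 4 sums were tested with edgeR 4.0.16 in R 4.3.3 (TMM factors, filterByExpr, quasi-likelihood F test, two-sided, Benjamini-Hochberg adjustment over all genes tested). The mouse entered as a block, since selected and comparison cells of a pair were taken from the same animal. That leaves 1 residual degree of freedom, so p-values lean on a spread shared over genes. They only set each difference between the groups against how far it varied between these 2 mice. Lepr, Grem1, Cxcl14, Adipoq, Rgs16, Hes1 and Ccn1 were left out of the calls. The test was tried on simulated data of the same comparison (10341 genes, 200 changed). It recovered 0% of those changed by 1 on the log2 scale, 18% of those changed by 2 and 57% of those changed by 3, with 0, 1 and 2 false calls. The simulation therefore cannot show how often genes held by single cells are called falsely.

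Named genes were the 10 highest and 10 lowest called genes with the same direction in both mice and a mean of 50 CPM or more, examples of the fixed lists, the 8 highest and 8 lowest genes between ages past 2-fold and the 5 nearest to Grem1. Ratios within a mouse had 0.5 UMIs added to each sum. Shares have Clopper-Pearson and sums Poisson intervals at 95%. Alternatives covered normalization, filters, doublets, depth, thresholds and the comparison cells. Leaving out cells with markers of another type, the comparisons among Cxcl14-positive cells and equal weight for each cell were added after seeing the data, and the genes named from them were chosen after their values were seen. A gene called in some of these is not reported here. DESeq2 1.42.0 served as an alternative test. Of 32 called genes, 20 had a row in the RefSeq promoter table.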

Additional observations from a re-analysis of the deposited data

Results flagged for a closer look

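S100a8 and S100a9, which neutrophils hold in large amounts, went in opposite directions in the mice. S100a8 in selected against comparison cells was at a log2 ratio of 1.81 (young) and -1.50 (old), and S100a9 at 1.81 and -2.02. In the young selected cells 99.9% of the S100a8 UMIs and 99.7% of the S100a9 UMIs lay in cells with 10 or more UMIs of another cell type's markers. Hes1 was at 0.023 (young) and -0.79 (old), and in the old selected cells 1 cell held 56.8% of its UMIs. With 1 mouse per age, these differences between the mice were not tested.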

How the results depend on the processing

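The number of genes called between selected and comparison cells, 32, depended on most choices. It was 9 with RLE size factors and with library totals only, 187 without a filter on low counts, 137 without predicted doublets, 57 with at most 10% mitochondrial UMIs, 78 with depth-matched comparison cells, 115 for cells with 4 or more UMIs of Grem1 and 13 for those with 2 or more UMIs of Adipoq. It was 9 without cells that held markers of another type, and 11 with depth matched too. Without the mouse as a block, edgeR called 0 genes (918 at an unadjusted p under 0.05, against 868 with the block), and DESeq2 called 32, of which 22 were shared. Against comparison cells with fewer than 2 UMIs of Cxcl14, edgeR called 0 of 2375 genes (100 at an unadjusted p under 0.05), and between groups that differed by the Grem1 rule only 0 of 1188 (27). These last fits hold 39 comparison cells, so their lack of calls does not show that the groups were alike. In the young mouse the A2m intervals lay apart, at up to 14.0 CPM in selected cells against 64.9 to 209 CPM. The old comparison cells with fewer than 2 UMIs of Cxcl14 held no UMI of A2m. Among Cxcl14-positive cells 162 genes were called without matching depth. With 1 mouse left out no test remains, so that step gives only values in a single mouse. The cause was not tested for any of these.

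The share of selected cells in the young mouse was 0.968% and 0.375% after thinning to 2000 and 5000 UMIs, 1.21% and 0.248% with Grem1 at 1 or more and at 4 or more, 1.65% of cells with Lepr and 16.0% without a limit on Cxcl14. In the old mouse it was 0.646%, 0.114%, 0.874%, 0.143%, 1.07% and 18.1%, and 0.251% with at most 10% mitochondrial UMIs. Genes outside 2-fold between ages numbered 56 after thinning and 61 without cells that held markers of another type. Per 10000 RNA UMIs, CD24 antibody in selected minus comparison cells was 42.9 (young) and 192 (old), against -5 and 8 for the count.

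Directions turned for some genes. Without cells that held markers of another type, Ptn was at -1.27, Aspn at -1.91, Prg4 at -1.66, Comp at -2.61 and Fn1 at -0.15, and with depth matched Comp was at -2.98, S100a8 at -0.74 and S100a9 at -0.87. With Adipoq at 2 or more, Prg4 was at -2.27, Comp at -0.56, S100a8 at -13.15 and S100a9 at -5.27. With Grem1 at 4 or more, Ngp was at -0.75, Sparcl1 at 0.14, Comp at -0.95, S100a8 at -7.08 and S100a9 at -6.50. Comp was at -0.87 after thinning and -0.36 with cells weighted equally. Between groups that differed by the Grem1 rule only, Kitl was at 0.062, Hp at 1.17, Spp1 at 0.86, Fn1 at -0.99, S100a8 at -11.83 and S100a9 at -8.08. Against comparison cells with fewer than 2 UMIs of Cxcl14, Hp was at 0.32, Spp1 at 0.41, S100a8 at -1.26 and S100a9 at -1.37. S100a9 was at -0.12 by DESeq2, and S100a8 and S100a9 were at 1.81 and 1.81 in the young mouse alone and at -1.50 and -2.02 in the old mouse alone. Values from groups with no UMI of a gene rest on the prior count. Over the named genes, 517 of the single-gene results kept their direction and their side of the threshold, 72 no longer passed it, 22 newly passed it and 32 turned.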
